A study of Caenorhabditis elegans with 2 samples.

Results

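The Notch signalling genes described here are 10 core components of the pathway, chosen by name among the 46233 genes of the deposited table. They are the receptors lin-12 and glp-1, the ligands lag-2 and apx-1, the protease sup-17, the γ-secretase genes sel-12, hop-1, aph-1 and pen-2, and the transcription factor lag-1. Each of the 10 symbols matched 1 row. Whole Caenorhabditis elegans at the fourth larval stage (L4), grown at 25 °C, gave 1 library of total RNA from the wild type strain N2 and 1 from VC2324, a strain labelled as a flp-6 mutant. The gene flp-6 encodes FMRFamide-like neuropeptides, and the labels do not describe its allele or any other change in the strain. With 1 library per genotype, no test of the genotype was possible and no value has an error between cultures.

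In Notch signalling, a ligand on one cell binds a receptor on its neighbour. An ADAM family protease then sheds the outer part of the receptor, and γ-secretase cuts the remainder within the membrane. The freed intracellular domain enters the nucleus and joins the DNA-binding protein LAG-1 and the co-activator SEL-8 to turn on target genes. In the nematode, GLP-1 keeps germ line stem cells dividing at the distal end of the gonad, next to the distal tip cell that presents LAG-2. LIN-12 acts in the choice between the anchor cell and a uterine precursor and in the patterning of the vulva, both of which take place in larvae.

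The unit is FPKM, the fragments mapped to a gene scaled by the authors to transcript length and library size, so levels can be compared between genes. A gene is called measured where its mean over both libraries was at least 1 FPKM. The values of flp-6 itself were 4.40 FPKM in the mutant library and 57.95 FPKM in N2, in the direction of the label. The FPKM column summed to 989473 in the mutant and 1414572 in N2, and its depth in reads is unknown because the table holds no counts. Differences are given as the log2 of (mutant FPKM + 1) over (N2 FPKM + 1), a scale on which low genes appear to differ less than they do. A difference is called higher or lower where it reached 2-fold on that scale.

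Of the 10 Notch signalling genes, 8 were measured. No member was higher in the mutant library by that rule, against a background of 10.5% of all 13436 measured genes. The members hop-1, aph-1 and pen-2 were lower, which is 3 of 8 against a background of 11.3%. All 3 belong to γ-secretase. The median difference of the 8 was 0.18, between -1.92 for pen-2 and 0.76 for glp-1, and the median of all measured genes was -0.10. The libraries come from whole larvae, so fewer cells of a type and less RNA per cell cannot be told apart.

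The order of the levels differed between the libraries. In N2 pen-2, hop-1 and aph-1 headed the list at 144.8, 105.0 and 103.7 FPKM, followed by lag-1 at 40.2 and sup-17 at 30.1. The mutant library had lag-1 first at 53.3 FPKM, then aph-1, hop-1 and sup-17 between 48.5 and 45.3, with pen-2 in place 5 at 37.5. The places from 6 to 10 were the same in both, namely glp-1, apx-1, sel-12, lin-12 and lag-2. Between the highest and the lowest of the 8 measured members there was a 12.8-fold range in N2 and a 4.87-fold range in the mutant. Without replicates it is unknown which neighbours in this order differ beyond the spread between cultures.

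**Figure D1:**
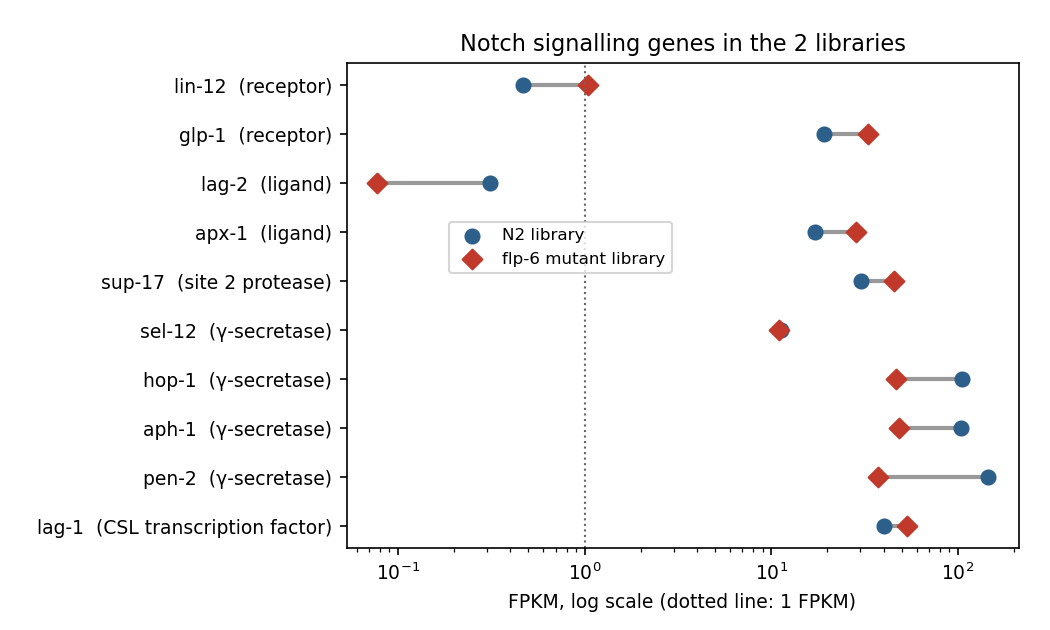
FPKM of the 10 Notch signalling genes on a log axis, with 1 circle for the N2 library and 1 diamond for the flp-6 mutant library per gene and no error bars, since each genotype has 1 library. The diamonds of hop-1, aph-1 and pen-2 lie well to the left of their circles, those of sel-12 coincide, and lin-12 and lag-2 lie near or below 1 FPKM.

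The receptors differed widely in level. The glp-1 gene (WBGene00001609) lies on the forward strand of chromosome III from 9092241 to 9099698 in WBcel235, with 1 annotated transcript of 4326 nt in 9 exons. It had 33.2 FPKM in the mutant library and 19.2 FPKM in N2, a ratio of 1.73 and a log2 difference of 0.76. The lin-12 gene (WBGene00003001), 20768 bases away on the reverse strand from 9060221 to 9071472, had 1.05 FPKM in the mutant and 0.466 in N2. Its mean of 0.756 FPKM is under the filter, so neither a direction nor a ratio to glp-1 is read from it.

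The germ line in which glp-1 acts gave mixed values. Of 8 germ line markers, all measured, 0 were higher and 0 lower by the 2-fold rule, against backgrounds of 10.5% and 11.3%. Their summed level was 672 FPKM in the mutant library and 736 FPKM in N2. The P granule gene pgl-3 had 112.0 FPKM in the mutant against 64.1 in N2. The chromosome axis gene him-3 had 90.9 FPKM against 182.3. Without the added 1 FPKM, him-3 was 2.004-fold lower in the mutant, just past 2-fold. Sperm markers did differ, with 5 of 6 measured members of a list of 10 higher in the mutant, at background 10.5%, and 0 lower. Their summed level was 81.3 FPKM in the mutant and 40.3 in N2, and msd-1 was listed at 0.0001, the value the table gives in place of 0, in both. The largest difference was that of spe-8, at 4.79 FPKM against 1.06. The gene spe-11, which encodes a paternal protein needed by the embryo, had 27.2 FPKM against 9.11, spe-15 had 17.98 against 5.98 and spe-12 had 7.18 against 2.58. The 1 measured sperm marker on the side of N2 was spe-44, at 15.6 FPKM against 18.7. The yolk genes vit-1 to vit-6 were lower in 3 of 6 cases, at background 11.3%, and in 6 of 6 after centring by length, at background 3.15%, and their sum was 8890 FPKM in the mutant and 14875 in N2. The part of these germ line, sperm and yolk values in the differences of the Notch genes was not tested.

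The ligands also lay at opposite ends of the scale. The apx-1 gene (WBGene00000168) spans chromosome V from 3210196 to 3223221 on the forward strand, with 6 annotated transcripts, the longest of 2347 nt in 8 exons. It encodes a DSL ligand known from the signal that patterns the early embryo, and it had 28.3 FPKM in the mutant library and 17.1 in N2, a ratio of 1.66 and a log2 difference of 0.70. The lag-2 gene (WBGene00002246), 20080 bases away on the same strand from 3188343 to 3190115, had 0.0773 FPKM in the mutant and 0.311 in N2. Both values are too low to give a direction, and in the authors' deposited table lag-2 has a p-value of 1.

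The other ligands were mostly too low to read. Of 13 further genes for DSL proteins and for the secreted co-ligands of the DOS family, 4 were measured. Of these 0 were higher and 0 lower, against backgrounds of 10.5% and 11.3%. The co-ligand osm-11, known for its part in osmotic stress responses, was the most abundant at 128.4 FPKM in the mutant library and 216.1 in N2, a log2 difference of -0.75. The others were dos-1 at 3.64 against 4.94, osm-7 at 2.31 against 2.81 and dsl-3 at 1.04 against 1.40 FPKM. All 4 values lay on the side of N2, as 55.7% of all measured genes did, by up to 1.68-fold, and their median difference was -0.30. After centring by length 2 of the 4 lay on each side, with dsl-3 at 0.21 and dos-1 at 0.07, and the median was -0.10. The dsl-4 gene was listed at 0.0001 in both libraries.

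Cleavage outside the membrane is carried out by 2 proteases. The sup-17 gene (WBGene00006324) encodes an ADAM metalloprotease and lies on the forward strand of chromosome I from 8792964 to 8797295, with 2 transcripts, the longest of 3388 nt in 14 exons. It had 45.3 FPKM in the mutant library and 30.1 in N2, a ratio of 1.51 and a log2 difference of 0.57. Its relative adm-4 had 10.7 FPKM in the mutant and 7.13 in N2, a log2 difference of 0.53. In both libraries sup-17 therefore stood 4.22-fold above adm-4.

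The γ-secretase genes held the 3 differences past 2-fold. Presenilin, the catalytic subunit, is encoded by sel-12 and hop-1, which can replace each other in part. The sel-12 gene (WBGene00004769) lies on the forward strand of chromosome X from 915867 to 918290, with 1 transcript of 1473 nt in 7 exons, and had 10.95 FPKM in the mutant library against 11.3 in N2. Its log2 difference was -0.04 as deposited, and the sign turned with every rescaling and centring tried. The hop-1 gene (WBGene00001985) lies on the reverse strand of chromosome I from 4208515 to 4210341, with 1 transcript of 1155 nt in 6 exons. It had 46.7 FPKM in the mutant and 105.0 in N2, 2.25-fold lower, with a log2 difference of -1.15. The hop-1 level was thus 9.31 times that of sel-12 in N2 and 4.26 times in the mutant, a comparison within each library that does not depend on the scale between them. Of the FPKM of both presenilin genes together, hop-1 made up 90.3% in N2 and 81.0% in the mutant.

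The aph-1 gene encodes a membrane-spanning subunit that helps to assemble the complex, and pen-2 encodes the small subunit needed for presenilin to mature. The aph-1 gene (WBGene00000147) lies on the reverse strand of chromosome I from 9232068 to 9233560, with 1 transcript of 1104 nt in 4 exons. It had 48.5 FPKM in the mutant library and 103.7 in N2, 2.14-fold lower, with a log2 difference of -1.08. The pen-2 gene (WBGene00003975) lies on the forward strand of chromosome III from 11343322 to 11344147, and its only transcript, of 483 nt in 3 exons, is the shortest of all members. It had 37.5 FPKM in the mutant and 144.8 in N2, 3.86-fold lower, with a log2 difference of -1.92. Of all measured genes, 1.37% had a difference as low or lower. The remaining subunit, nicastrin, encoded by aph-2, had 31.8 FPKM in the mutant and 40.6 in N2, a log2 difference of -0.34. Levels of aph-1 and hop-1 were close to each other in both libraries, with ratios of 1.04 in the mutant and 0.987 in N2. Over the 5 subunit genes, the summed level was 175.4 FPKM in the mutant and 405.4 FPKM in N2.

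The authors' deposited table gives pen-2 a p-value of 0.0169 and, after adjustment, a q-value of 0.951. Its test sets 1 library against the other and cannot speak for the genotypes. The authors' deposited list of picked genes holds all 715 genes with a 2-fold ratio and a p-value under 0.05, which is 1.55% of the table and covers 4.25% of the measured genes. The only member in it was pen-2. For hop-1 the authors' deposited table gives a p-value of 0.114, and for aph-1 one of 0.282. No gene in the authors' deposited table was marked significant, and its lowest q-value was 0.112.

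Both measured genes of the nuclear step lay within 2-fold. The lag-1 gene (WBGene00002245) lies on the forward strand of chromosome IV from 6095407 to 6110655, with 4 transcripts, the longest of 4541 nt in 10 exons. It encodes the DNA-binding protein of the CSL family through which the pathway acts on its targets. It had 53.3 FPKM in the mutant library and 40.2 in N2, a log2 difference of 0.40 that turned to -0.16 after centring by transcript length. Centred by median transcript length, the difference was 0.11. The glutamine-rich co-activator gene sel-8 had 22.8 FPKM in the mutant and 15.1 in N2, a log2 difference of 0.56.

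The direction of the members went with the length of their longest annotated transcripts, which is the length used here. The 4 measured members with values on the side of the mutant, glp-1, lag-1, sup-17 and apx-1, have longest transcripts of 2347 to 4541 nt. By the median of its 6 transcripts, apx-1 had 1477.5 nt, next to 1473 nt for sel-12. The 4 on the side of N2, sel-12, hop-1, aph-1 and pen-2, have transcripts of 483 to 1473 nt. Genes at large showed the same tendency. Genes of like length were taken as the 325 genes in the same of 40 length classes of equal size, over 12999 genes above 0.0001 FPKM in both libraries. Their median log2 difference was 0.56 in the class of glp-1 and lag-1, 0.50 in that of sup-17, 0.18 in that of apx-1 and -0.22 in that of sel-12. It was -0.28 for hop-1, -0.27 for aph-1 and -0.56 for pen-2.

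Set against genes of like length, glp-1, lag-1, sup-17 and sel-12 lay within the quartiles of their class. Their centred differences, which are the log2 difference minus the class median, were 0.20, -0.16, 0.08 and 0.18. The value of apx-1 lay above the upper quartile of its class, with a centred difference of 0.52, or of 0.86 when centred by median transcript length. The values of hop-1, aph-1 and pen-2 lay below the lower quartile, with centred differences of -0.88, -0.81 and -1.36. The γ-secretase gene aph-2, outside the member list and with a longest transcript of 2384 nt, also lay below that of its class. Its centred difference was -0.52. By construction 25% of genes lie below the lower quartile. After centring, pen-2 was the only member past 2-fold, which is 1 of 8 against a background of 3.15% lower and 10.9% higher among the 12999 genes. The median of the 8 members turned from 0.18 to -0.042. With mean expression centred as well, hop-1, aph-1 and pen-2 stood at -0.50, -0.43 and -1.07. Centring also removes any real difference that genes of like length, or of like length and level, share.

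**Figure D2:**
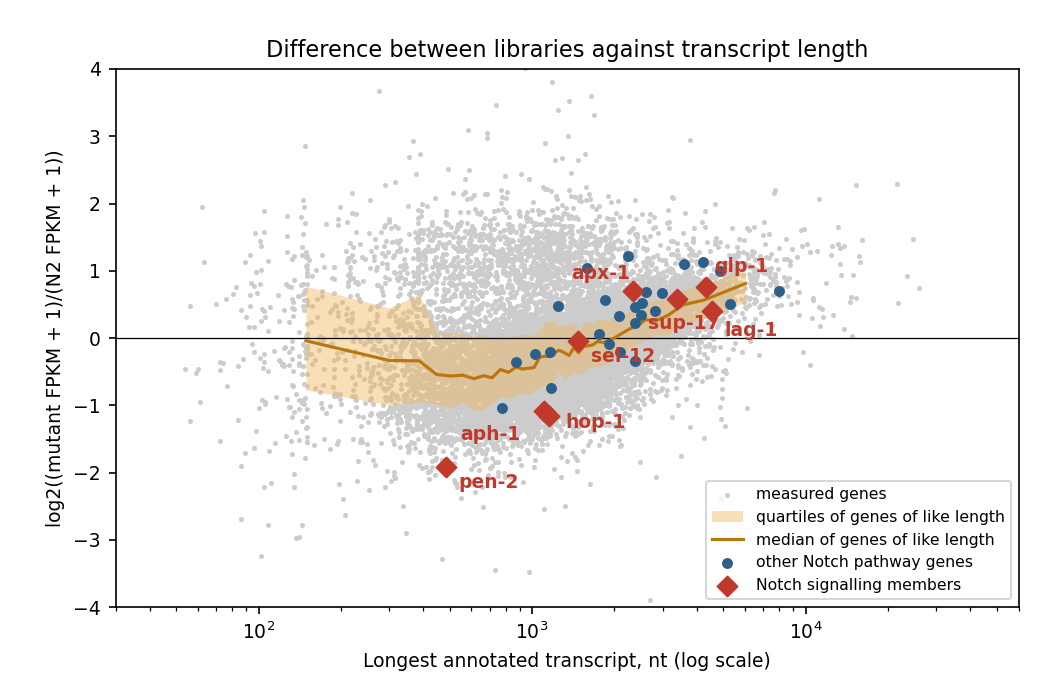
Log2 difference between the libraries against the longest annotated transcript (nt, log axis) for single genes, drawn for differences between -4 and 4. The line and band give the median and quartiles of 40 classes of like length, the diamonds the 8 measured Notch members and the dark points 26 other Notch pathway genes. The members follow the slope of the line, with hop-1, aph-1 and pen-2 below the band and apx-1 above it.

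The scale between the libraries moved the counts. With both libraries brought to the same FPKM sum, the median of all measured genes shifted by 0.44, and glp-1, apx-1 and sup-17 passed 2-fold on the higher side with log2 differences of 1.26, 1.19 and 1.08. On that scale 20.5% of all measured genes were higher and 3.1% lower. It left pen-2 alone on the lower side, and hop-1 and aph-1 dropped below 2-fold. With the same upper quartile, or with the median of well expressed genes set to 0, the shift was 0.19 and 0.18, and again only pen-2 was past 2-fold. Among all measured genes past 2-fold, the share on the higher side was 48.0% as deposited, 86.8% with the same sum, 68.7% with the same upper quartile, 66.7% with the median set to 0 and 77.6% after centring by length. Among the 8 members, pen-2 was the one past 2-fold under each of its 11 alternatives that keep the 2-fold rule, with values from -1.95 to -1.07. The values of hop-1 lay between -1.17 and -0.50 and those of aph-1 between -1.10 and -0.43 over the same alternatives, always on the side of N2.

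**Figure D3:**
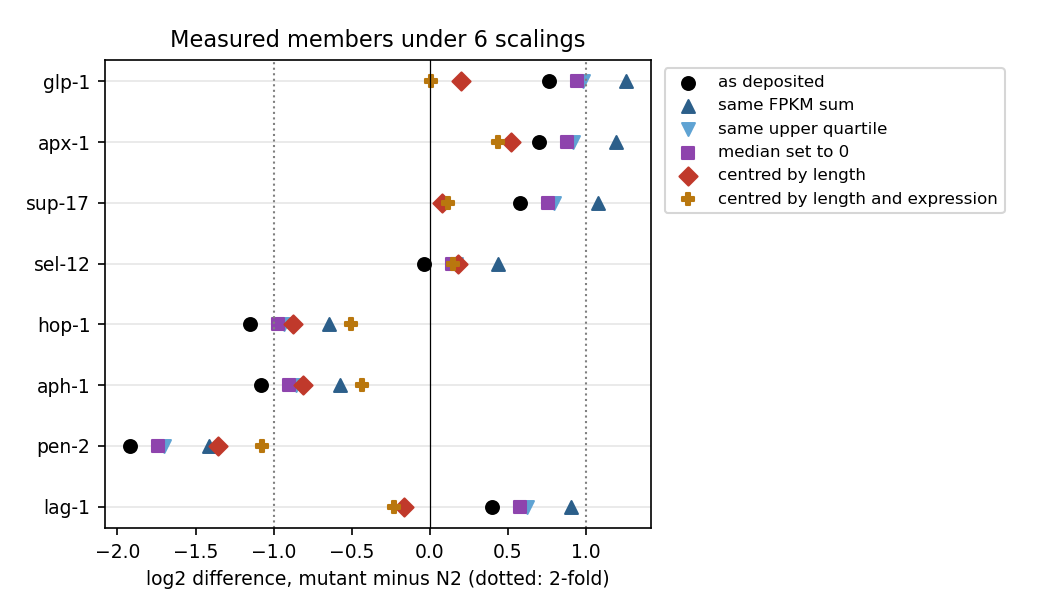
Log2 differences (mutant minus N2) of the 8 measured members as deposited, under 3 rescalings and under 2 centrings, with dotted lines at 2-fold. All symbols of pen-2 lie left of the lower dotted line, those of hop-1 and aph-1 lie on either side of it, and those of lag-1 and sel-12 fall on both sides of 0.

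Overlapping genes were looked up, since the kit named in the labels does not mark strand and reads from overlapping genes cannot then be told apart. The pen-2 gene shares 48 bases with T28D6.7 on the opposite strand, which had 18.9 FPKM in the mutant library and 12.3 in N2. The aph-1 gene shares 29 bases with gip-2, at 44.6 against 61.9 FPKM, and hop-1 shares 18 bases with C18E3.3, at 3.97 against 2.83 FPKM. The glp-1 gene shares 18 bases with ZK507.1, at 2.24 against 0.834 FPKM. The lag-1 gene shares 9 bases with M03D4.3, at 22.1 against 80.0 FPKM, and 3 noncoding RNA genes listed at no more than 0.508 FPKM overlap it. The other members overlap no annotated gene. The locus intervals in the authors' deposited table were wider than the annotated genes for some members. That of aph-1 spans 5401 bases against 1493 for the gene, and also overlaps lipt-1 beside gip-2. That of hop-1 spans 6884 bases against 1827, with C18E3.3 in it. For glp-1 the spans are 9019 and 7458 bases, and for pen-2 955 and 826. The part of these overlaps and wider intervals in the values was not tested.

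Of the 17 measured modulators of the pathway, 14 had values on the side of the mutant library, where 44.3% of all measured genes lay. After centring by length the count was 13 of 17, beside 6480 of all 12999 genes centred. Together with the ligands, cleavage and nuclear genes above, the list of other pathway genes held 36 genes, of which 26 were measured. Of these 5 were higher, 1 was lower and 20 lay within 2-fold, with a median difference of 0.43, against backgrounds of 10.5% and 11.3%. After centring by length 2 were higher, 0 lower, and the median was 0.18. Among the modulators 4 were higher and 1 was lower, and the 4 have longest transcripts of 2251 to 4865 nt. The gene epn-1, for an endocytic adaptor of the epsin family, had 96.6 FPKM in the mutant and 41.0 in N2. The putative transcriptional repressor spr-4, found as a suppressor of presenilin mutants, had 16.7 against 7.12 FPKM. The kinase gene sel-5 had 43.4 against 19.7 FPKM, and emb-5, whose product binds the receptors' intracellular domains, had 69.5 against 34.2 FPKM. This last gene was named after its value was seen. The lower one was sel-9, for a cargo receptor of the p24 family that affects receptor transport, at 244.3 against 504.9 FPKM. After centring by length epn-1 stood at 1.08, while sel-5 at 0.60, spr-4 at 0.57, emb-5 at 0.19 and sel-9 at -0.58 were within 2-fold.

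The presenilin relatives differed from each other. The gene spe-4, which encodes a presenilin-like protein of developing sperm, had 11.3 FPKM in the mutant library and 4.95 in N2, a log2 difference of 1.05, beside the higher sperm markers given above. The gene imp-2, for an intramembrane protease of the signal peptide peptidase family, had 145.7 against 139.6 FPKM. The centred differences were 1.16 for spe-4 and 0.11 for imp-2.

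None of the measured target genes was past 2-fold on the scale used. Of 22 genes listed as Notch targets or as members of the germ line switch below GLP-1, 17 were measured. Of these 0 were higher and 0 lower, against backgrounds of 10.5% and 11.3%. Their median difference was 0.27 as deposited and 0.07 once centred by length. Of the genes that GLP-1 turns on in stem cells, sygl-1 had 135.7 FPKM in the mutant library against 80.1 in N2. The other, lst-1, had 60.5 against 69.2 FPKM, a log2 difference of -0.19 that turned to 0.07 after centring by length. The transcript of sygl-1 has 838 nt, and its centred difference of 1.26 was the only one in the target list past 2-fold. Of all genes so centred, 10.9% were higher and 3.15% lower. With expression centred as well, 1 target was higher and 1 lower, against backgrounds of 9.75% and 3.21%. The RNA-binding repressor gene fbf-2, active in the same cells, had 14.9 against 25.7 FPKM. The poly(A) polymerase gene gld-2, which promotes entry into meiosis, had 53.7 against 28.04 FPKM, and nos-3, for a Nanos-type repressor, had 49.5 against 34.8 FPKM. With both libraries at the same sum, 5 of the 17 targets were past 2-fold on the higher side, where 20.5% of all measured genes then lay.

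In the somatic part of the list, 9 of 14 genes were measured and 8 of these lay on the side of the mutant, as 44.3% of all measured genes did. After centring by length it was 7 of 9, beside 6480 of all 12999 genes centred. The kinase gene ark-1, an inhibitor of vulval EGF receptor signalling, had 11.2 FPKM in the mutant library and 5.30 in N2, a log2 difference of 0.95. Without the added 1 FPKM, the ratio of ark-1 was 2.11, past 2-fold. The MAP kinase phosphatase gene lip-1 had 43.9 against 27.6 FPKM, lst-3 had 73.4 against 46.7 and the sorting nexin gene lst-4 had 72.6 against 57.5. Their centred differences were 0.46, 0.65, 0.14 and 0.27. Of the related bHLH genes hlh-25 to hlh-29, which respond to Notch in the embryo, none was measured, and hlh-27 and hlh-28 were listed at 0.0001 in both libraries.

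Measured markers of the somatic gonad and the vulva, where the pathway acts, lay within 2-fold on the scale used. Of all measured genes, 10.5% were higher and 11.3% lower on that scale. Of 11 somatic gonad markers 8 were measured, with 0 past 2-fold and a summed level of 121.4 FPKM in the mutant library and 84.8 in N2, of which the matrix gene mig-6 made up 80.0 and 47.2. The others named by the rule were lim-7, at 5.41 against 2.58 FPKM, gon-1, a protease of gonad elongation, at 4.56 against 2.25, and zmp-1, at 3.06 against 4.01. Without the added 1 FPKM, the ratios of lim-7 and gon-1 were 2.10 and 2.03, past 2-fold. Of 8 vulva markers 7 were measured, with 0 past 2-fold and sums of 26.7 and 27.4 FPKM. The EGF receptor gene let-23 had 4.27 against 2.72 FPKM and the transcription factor gene lin-31 had 1.49 against 2.24. Among oocyte markers 1 of 8 was higher and 1 lower, near the backgrounds of 10.5% and 11.3%. The higher one was the eggshell gene cbd-1 at 503.2 against 221.3 FPKM, with a centred difference of 0.62. The lower one was rme-2, listed at 0.0001 in the mutant and at 135.7 FPKM in N2. The values do not show whether its transcript was absent from the mutant library or was not quantified there. Of the 8 oocyte markers, 6 lay on the side of the mutant library and 2, with rme-2, on that of N2. Of 10 embryo markers only elt-1 and pha-4 were measured, which are also active in larvae, and the list summed to 9.12 and 8.61 FPKM.

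**Figure D4:**
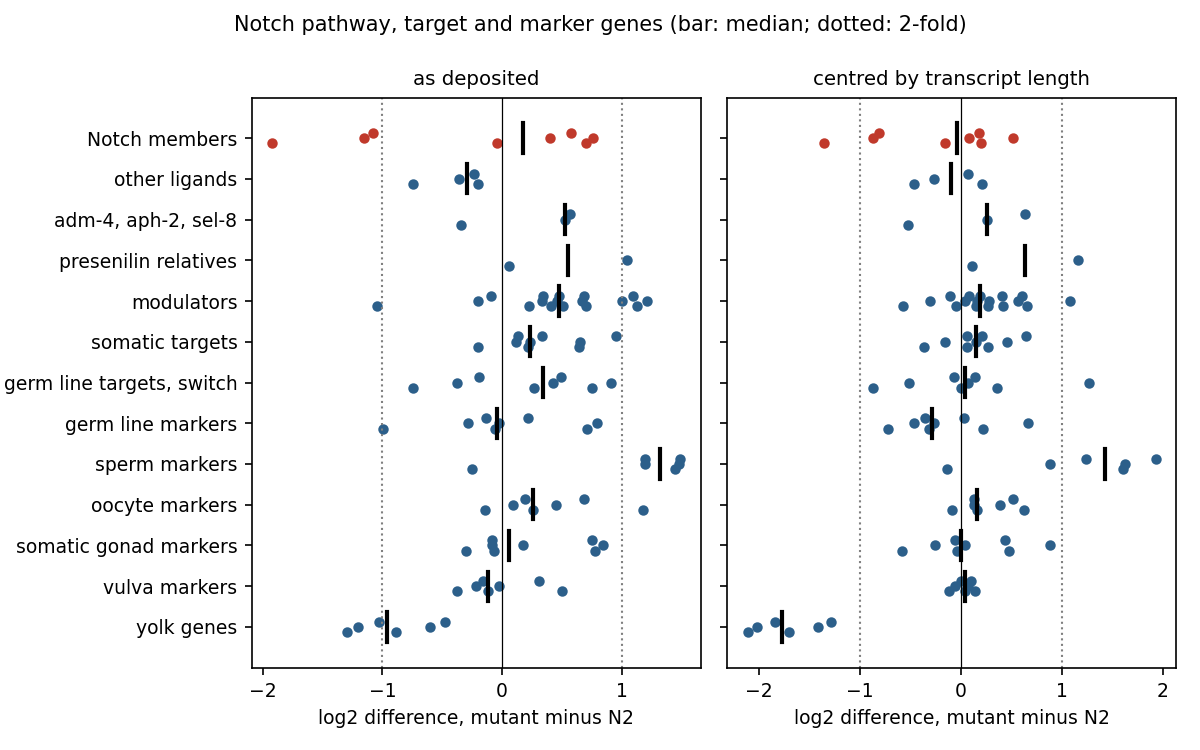
Log2 differences (mutant minus N2) of the measured genes of each list, as deposited on the left and centred by transcript length on the right, with 1 point per gene above 0.0001 FPKM in both libraries (this leaves out rme-2), a bar at the median and dotted lines at 2-fold. On the left the 3 lower Notch members and sel-9 among the modulators lie beyond the lower line, pen-2 remains past 2-fold on the right, and 5 of the 6 sperm markers lie opposite the yolk genes.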

How the data were processed

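Trizol extraction and TruSeq libraries for Illumina sequencing are described per the labels' protocols. The submitters' processing notes list TopHat, Cufflinks and the build WBcel235; settings are not given in the sources used here. FPKM values, as deposited, were normalized for length and library size by the authors. Their deposited log2 ratio and ratio (fold, mutant over N2) carry no pseudocount, and the deposited p-value and q-value compare 1 library with the other. Low values did not fall on whole-read steps, with 22.3% and 22.5% within 0.1 of a step at best and 20% by chance, so no counts were recovered.

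Coordinates, transcripts and lengths come from the Ensembl annotation of WBcel235, release 115, which held 99.2% of the gene identifiers. The pseudocount was 1, the filter a mean of 1 FPKM, and the threshold 2-fold. All members were named. Other genes were taken from the 4 largest differences of each list, with aph-2, sel-8 and adm-4. Named after their values were seen were emb-5, lst-1, spe-44, lipt-1, overlapping genes and genes listed at 0.0001 in both libraries. The members and lists were chosen with earlier results of these data known. Calculations were tested on simulated data. Python 3.11.15, numpy 2.4.6, pandas 2.3.3 and matplotlib 3.10.9 were used. Alternatives were other pseudocounts, filters, thresholds, scales and centrings.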

Additional observations from a re-analysis of the deposited data

How the results depend on the processing

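No paired analysis was possible because each genotype has 1 library, and for the same reason no library could be left out. Counts of members past 2-fold were the same with pseudocounts of 0.1 and 5, without a filter, with a mean of at least 5 FPKM and without genes listed at 0.0001. At 4-fold 0 members, 0 other pathway genes and 0 targets were past the threshold in either direction. Of all measured genes, 1.62% were then higher and 1.19% lower. With the same FPKM sum 3 members were higher and 1 lower, 10 other pathway genes were higher and 0 lower, and 5 targets were higher, beside 20.5% of all measured genes higher and 3.1% lower. With the same upper quartile, or the median set to 0, 1 member was lower, 0 other pathway genes were lower and 2 targets were higher. Of all measured genes, 13.9% were higher and 6.31% lower with the same upper quartile, and 13.7% and 6.82% with the median set to 0. After centring by length, also by the median transcript length, 1 member was lower, 2 other pathway genes were higher and 0 lower, and 1 target was higher. Of all genes so centred, 10.9% were higher, with 3.15% lower, or 3.12% by the median transcript length. Centring by length and mean expression together gave the same counts and 1 lower target, beside 9.75% of genes higher and 3.21% lower. A pseudocount of 0.1 gave 1 higher target, beside 13.2% of all measured genes. One of 5 gave 1 higher pathway gene, beside 3.57%. The median of the members, 0.18 as reported, was -0.042 centred by length, -0.11 centred by length and expression, and 0.12 with the median transcript length. The sel-12 difference of -0.04 turned to 0.43 with the same sum, 0.17 with the same upper quartile and 0.14 with the median set to 0. Under the 3 centrings it was 0.18, 0.13 and 0.15. For lag-1 the value turned to -0.16 centred by length and -0.23 centred by length and expression. Centred by median transcript length, lag-1 stayed on the side of the mutant at 0.11. The centrings by median length and by expression were chosen after seeing the data, and the cause of these shifts was not tested. Values under 1 FPKM could not be judged, which leaves lin-12 and lag-2 without a direction.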
